A study of Mus musculus with 12 samples.

Results

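The 10 genes described here encode enzymes that make, convert and break down ceramide, and they were taken by name from the 12339 genes of the count table: Sptlc1, Sptlc2, Cers2, Cers5, Cers6, Degs1, Sgms1, Ugcg, Sgpl1 and Cerk. All 10 were listed with counts in every library, and all 10 passed the filter on low counts, as did every other gene of the table. RNA came from mouse peritoneal macrophages drawn into the cavity by sterile thioglycolate, an irritant broth. Every mouse, in all 4 groups and on both diets, had received an AAV8 viral vector at 8 weeks of age. Cells were harvested 4 weeks later. The 4 groups were wild type (WT) mice on chow, WT mice on a high fat Western diet (HFD), mice labelled meKO on chow and mice labelled meKO on HFD, with 3 libraries each. By the series title, meKO mice lack protein kinase C epsilon (gene Prkce) in myeloid cells; the recombinase that removes it is not given in the sources used here. The labels describe 8 WT and 8 meKO animals, 4 of each fed HFD, and 12 libraries were analysed here. No label ties a library to an animal, so p-values measure the spread between these samples, part of which may be technical.

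Sphingolipid synthesis starts in the endoplasmic reticulum, where serine palmitoyltransferase, a complex of the SPTLC1 and SPTLC2 subunits, joins serine to palmitoyl-CoA. Ceramide synthases (CERS proteins) then attach a second acyl chain, each with its own preference for chain length, and dihydroceramide desaturase (DEGS1) introduces the double bond that turns dihydroceramide into ceramide. Ceramide leaves this branch point as sphingomyelin (made by SGMS1), glucosylceramide (made by UGCG) or ceramide 1-phosphate (made by CERK), while sphingosine released from ceramide is phosphorylated and finally cleaved by sphingosine 1-phosphate lyase (SGPL1), the only exit from the pathway. Macrophages also take up sphingomyelin and glycosphingolipids with lipoproteins and dying cells and break them down in lysosomes, and the pathway has been studied in atherosclerosis for that reason.

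Libraries held 25844958 to 37282772 counts, and the 10 genes had between 1253 counts (lowest library of Ugcg) and 28303 counts (highest library of Sgpl1), so counting error was small beside the spread between libraries. Prkce itself was a low gene with 25 to 151 counts. It was at 4.27, 4.44 and 2.35 CPM (counts scaled to library size) in WT chow, 2.01, 2.89 and 2.53 in WT HFD, 1.42, 0.950 and 1.62 in meKO mice on chow and 1.78, 0.954 and 1.51 in meKO mice on HFD. Each meKO library was below each WT library on its diet, but the edgeR adjusted p was 0.0794 on chow and 0.989 on HFD, and 0.0588 averaged over the diets (log2 fold change -1.13 ± 0.22 SE). All 8 macrophage markers looked for were listed. Without Lyz2, the other 7 summed to 5560 to 5638 CPM in WT chow, 4969 to 5566 in WT HFD, 5621 to 6231 in meKO mice on chow and 5068 to 5778 in meKO mice on HFD. Lyz2, the lysozyme of myeloid cells and the most abundant of the 8, went apart from them: it was at 31225 to 53835 CPM in WT chow, 30482 to 37662 in WT HFD and 16293 to 18865 in meKO mice on HFD, and in meKO mice on chow at 20306 and 21309 in replicates 1 and 3 but 69.3 in replicate 2. The WT and meKO libraries did not overlap in Lyz2, and meKO chow replicate 2 stood far below all others. Leaving out meKO chow replicate 2 ended 1 edgeR call among the 10 enzymes, that of Sgpl1 for diet averaged over genotypes (-0.20, edgeR adjusted p = 0.0837), and its part in other differences was not tested beyond that. Libraries also differed along gene length. The Spearman correlation, across genes, of exon length with a library's deviation from the 12-library mean was 0.62 and 0.66 in WT chow replicates 1 and 2, -0.05 in WT chow replicate 3, and between -0.45 and 0.14 in the other 9 libraries. WT chow replicates 1 and 2 thus stood apart from WT chow replicate 3, which lay within the range of the other 9 libraries. A fit without WT chow replicate 3 leaves WT chow to replicates 1 and 2. Such a fit called 39.9% of all genes for diet in WT mice, against 21.3% with all 12 libraries. For genotype on chow it called 20.6% against 0.081%, for diet averaged over genotypes 43.2% against 30.2%, and for genotype averaged over diets 11.3% against 0.17%. A gene that passes only there is to be read beside those shares. Results that turn on WT chow replicate 3, or on offsets that remove the relation with length across genes, are given with both values below.

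Expressed per kilobase of exon, so that genes can be set side by side, the desaturase and the lyase were the most abundant of the 10. Degs1 averaged 310.3 CPM per kb over the 12 libraries (lowest library 216, highest 377), Sgpl1 169 (143 to 201) and Cers2 129.9 (100 to 148). Cerk followed at 52.4 CPM per kb (40.7 to 65.2). Cers5 at 29.5, Sptlc2 at 27.1 and Sptlc1 at 25.9 CPM per kb were close together, and their ranges over libraries overlapped (24.5 to 32.1, 22.4 to 30.6 and 23.1 to 29.6). Sgms1 at 20.0 (15.4 to 24.2) and Ugcg at 14.1 (10.8 to 16.1) also overlapped, and Cers6 was lowest at 8.17 CPM per kb (6.31 to 11.4). The levels were as steady as those of most genes: the coefficient of variation over the 12 libraries ran from 7.46% for Sptlc1, 7.62% for Cers5 and 9.27% for Sptlc2 to 16.3% for Degs1 and 20.2% for Cers6, against a median of 15.8% over the 9320 genes that averaged 5 CPM or more.

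**Figure D1:**
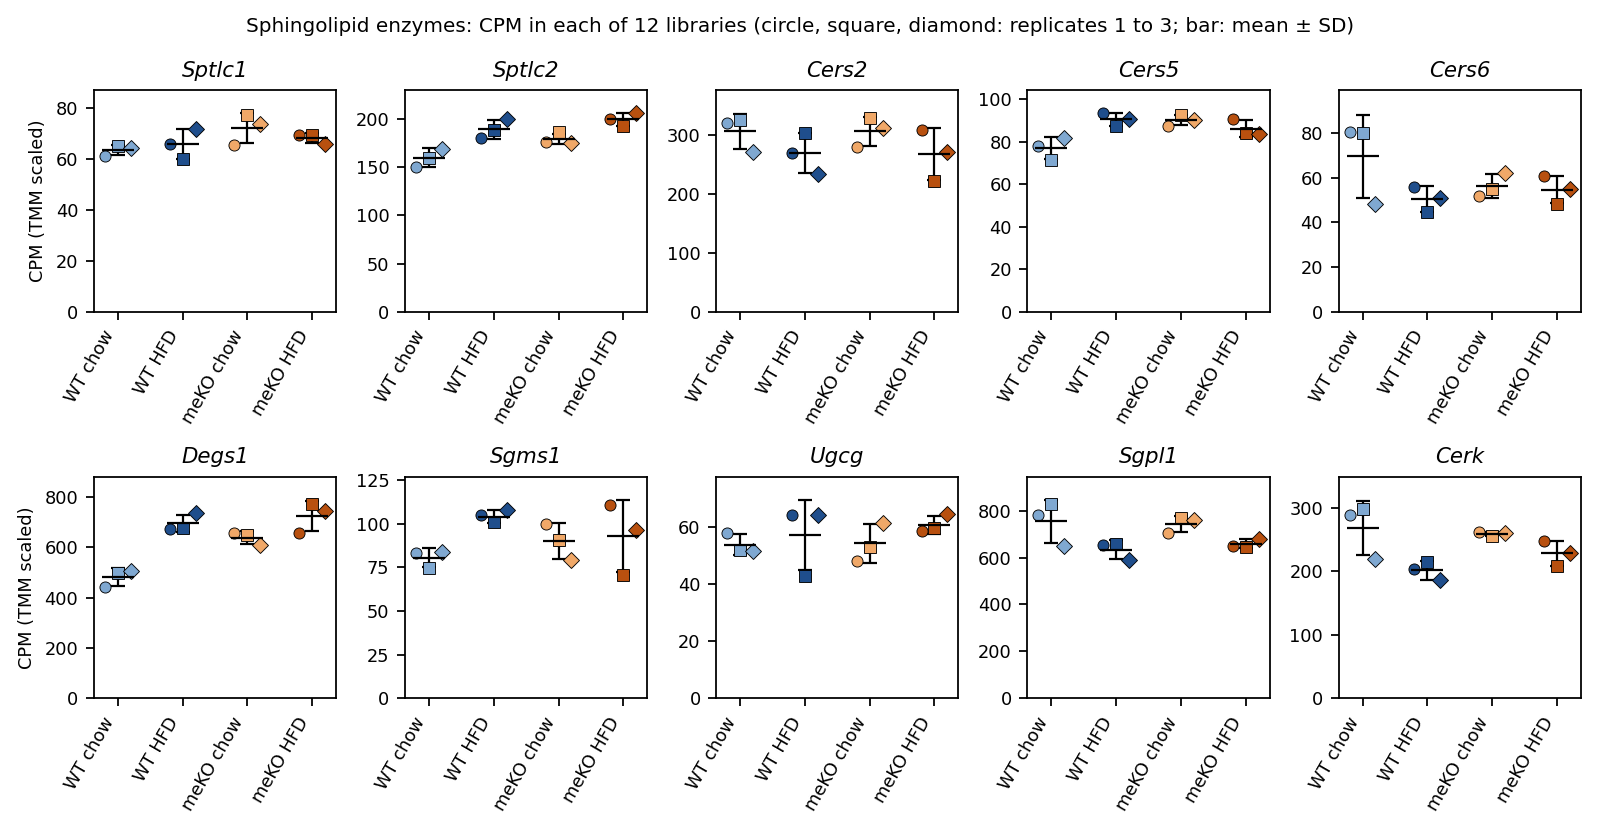
CPM of each of the 10 genes in the 12 libraries, by group (circle, square and diamond are replicates 1 to 3, bars are group means with SD, n = 3; each panel has its own vertical axis from 0). Degs1 sits between 442 and 506 in WT chow and between 609 and 772 in the other 3 groups, and Cers6 shows WT chow replicate 3 (48.2) apart from the other WT chow libraries (80.3 and 80).

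The diet question was asked first in WT mice. On HFD, Degs1, the desaturase, rose and Cerk, the ceramide kinase, fell; these were the 2 of 10 genes that passed an adjusted p of 0.05 in edgeR's quasi-likelihood test, where 21.3% of all genes tested passed, 9.5% higher and 11.8% lower. That share of the 10 is close to the background. Of the 10, 7 had an unadjusted p under 0.05, against 39.4% of all genes, and 5 had diet groups that did not overlap in CPM (Sptlc2, Cers5, Degs1 and Sgms1 higher, Cerk lower), against 39.3% of all genes. The median log2 fold change of the 10 was 0.07 and that of all genes -0.03. In RNA from whole samples, a change in the share of a cell type and a change in RNA per cell cannot be told apart.

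Degs1 (chr1:182275964-182282854, minus strand, GRCm38, 2.05 kb of exons) was at 442, 498 and 506 CPM in WT chow, 674, 677 and 735 in WT HFD, 659, 649 and 609 in meKO mice on chow and 658, 772 and 745 in meKO mice on HFD. The WT chow libraries were the 3 lowest of the 12 and did not overlap any other group, while the diet groups of meKO mice overlapped through 1 meKO HFD library. The WT change was a log2 fold change of 0.53 ± 0.10 (SE, 95% CI 0.31 to 0.74, n = 3 and 3, edgeR adjusted p = 0.0110), an increase of 44.2%. It passed in 21 of 24 alternative settings, with log2 fold changes of 0.34 to 0.57 and edgeR, limma or DESeq2 adjusted p-values of 8.69e-06 to 0.346. It was lost without WT chow replicate 1 (0.48, edgeR adjusted p = 0.0609), without WT HFD replicate 3 (0.50, edgeR adjusted p = 0.0632), and when WT chow was held by its replicate 3 alone (0.46, edgeR adjusted p = 0.346). With length offsets it stayed at 0.40 ± 0.08 (edgeR adjusted p = 0.0155). In meKO mice the same comparison gave 0.18 ± 0.10 (95% CI -0.03 to 0.40, edgeR adjusted p = 0.374).

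Cerk (chr15:86139101-86186259, minus strand, 4.56 kb of exons, of which 1.2% overlap the antisense gene Gm15569) was at 289, 298 and 219 CPM in WT chow, 203, 215 and 186 in WT HFD, 262, 255 and 260 in meKO mice on chow and 247, 208 and 228 in meKO mice on HFD. The HFD libraries were below the chow libraries in both genotypes with no overlap, by a margin of 4 CPM in WT, where WT chow replicate 3 was the lowest chow library. In WT mice Cerk fell by 25.0% (log2 fold change -0.42 ± 0.12, 95% CI -0.68 to -0.16, edgeR adjusted p = 0.0313). This call was less steady than that of Degs1: it held in 16 of 24 settings, with log2 fold changes of -0.53 to -0.06 and adjusted p-values of 0.000377 to 0.782. Length offsets brought it to -0.18 ± 0.08 (edgeR adjusted p = 0.139), length and GC offsets to -0.06 (edgeR adjusted p = 0.546), and WT chow replicate 3 alone to -0.12 (edgeR adjusted p = 0.782). It was also lost without WT chow replicate 1 (-0.34, edgeR adjusted p = 0.142), WT chow replicate 2 (-0.33, 0.139), WT HFD replicate 1 (-0.42, 0.0779) or WT HFD replicate 3 (-0.35, 0.139). In meKO mice the log2 fold change was -0.19 ± 0.12 (95% CI -0.45 to 0.07, edgeR adjusted p = 0.445).

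The serine palmitoyltransferase subunits did not move together. Sptlc2 (chr12:87305058-87388355, minus strand, 6.71 kb of exons), which carries the catalytic site, was at 150, 159.6 and 169 CPM in WT chow, 179.7, 188 and 199.5 in WT HFD, 176, 186 and 175 in meKO mice on chow and 200.2, 193 and 206 in meKO mice on HFD. Every HFD library was above every chow library of its genotype. Sptlc1 (chr13:53332748-53377417, minus strand, 2.61 kb of exons), the partner subunit, was at 61.4, 65 and 64.2 CPM in WT chow and 65.9, 60.1 and 71.7 in WT HFD, and at 65.5, 77.2 and 73.9 in meKO mice on chow and 69.4, 69.3 and 65.9 in meKO mice on HFD, so its diet groups overlapped in both genotypes. In WT mice the log2 fold change was 0.24 ± 0.09 for Sptlc2 (95% CI 0.05 to 0.44, edgeR adjusted p = 0.0658) and 0.05 ± 0.10 for Sptlc1 (95% CI -0.17 to 0.27, edgeR adjusted p = 0.725). Sptlc2 passed in 5 of 24 settings (adjusted p 0.00541 to 0.687), among them length offsets (0.56 ± 0.13, edgeR adjusted p = 0.0255) and the fit without WT chow replicate 3 (0.30, edgeR adjusted p = 0.0212). In that last fit 39.9% of all genes passed.

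Of the ceramide synthases, none passed in WT mice on the main fit. Cers2 (chr3:95314771-95323599, plus strand, 2.22 kb of exons, of which 4.9% overlap genes on the opposite strand, the antisense gene 6330562C20Rik and the protein-coding gene Setdb1), which makes very long chain ceramides, was at 322, 327 and 272 CPM in WT chow and 271, 304 and 235 in WT HFD. Cers5 (chr15:99735592-99772515, minus strand, 2.91 kb of exons), which prefers palmitoyl-CoA, was at 78.0, 71.4 and 81.7 CPM in WT chow and 93.5, 87.4 and 90.5 in WT HFD. Cers6 (chr2:68861145-69114284, plus strand, 7.06 kb of exons), with a like preference, was at 80.3, 80 and 48.2 CPM in WT chow and 55.9, 44.6 and 51.0 in WT HFD. Cers5 was higher in every WT HFD library, Cers2 overlapped, and Cers6 overlapped through WT chow replicate 3 alone. The log2 fold changes in WT mice were -0.19 ± 0.14 for Cers2 (edgeR adjusted p = 0.328), 0.23 ± 0.09 for Cers5 (edgeR adjusted p = 0.0805) and -0.46 ± 0.17 for Cers6 (95% CI -0.84 to -0.09, edgeR adjusted p = 0.0694).

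The value of Cers6 rested on which WT chow libraries were used. Without WT chow replicate 3 it was -0.66 (edgeR adjusted p = 0.00271), and against WT chow replicate 3 alone it was 0.07, with the range over 24 settings running from an adjusted p of 0.000782 to 0.913. Length offsets gave -0.08 ± 0.11 (edgeR adjusted p = 0.673). Cers5 passed without WT chow replicate 3 too (0.29, edgeR adjusted p = 0.0285), where 39.9% of all genes passed. It was 0.25 ± 0.08 with length offsets (edgeR adjusted p = 0.0517). In meKO mice Cers2 was at 280.4, 329 and 313 CPM on chow and 309, 222 and 272 on HFD, Cers5 at 87.4, 92.5 and 90.3 on chow and 90.8, 83.9 and 83.5 on HFD, and Cers6 at 51.7, 54.9 and 62.0 on chow and 60.5, 48.4 and 54.7 on HFD. All 3 overlapped between diets there.

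Shares of the ceramide synthase transcripts per kilobase were taken over Cers2, Cers4, Cers5 and Cers6, the listed members of the family. Cers2 took 79.0% ± 1.3 (SD, n = 3) in WT chow, 75.9% ± 2.85 in WT HFD, 77.9% ± 0.883 in meKO mice on chow and 76.1% ± 2.18 in meKO mice on HFD. Cers5 took 15.2% ± 2.27, 19.5% ± 2.12, 17.4% ± 0.750 and 18.8% ± 2.06 in the same order, and Cers6 5.56% ± 1.08, 4.50% ± 0.754, 4.48% ± 0.358 and 4.89% ± 0.140. The order Cers2, Cers5, Cers6 held in all 12 libraries. These are shares of RNA, not of enzyme activity or of ceramide species.

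The enzymes that use ceramide differed from one another. Sgms1 (chr19:32122727-32389885, minus strand, 4.6 kb of exons), the Golgi sphingomyelin synthase, was at 83.4, 74.4 and 83.9 CPM in WT chow and 105, 101 and 108 in WT HFD, and at 99.9, 90.8 and 79.4 in meKO mice on chow and 111, 70.6 and 96.7 in meKO mice on HFD. It was higher in every WT HFD library and overlapped between diets in meKO mice, where 1 HFD library was the lowest of all 12. Its WT log2 fold change was 0.37 ± 0.14 (95% CI 0.06 to 0.68, edgeR adjusted p = 0.0757), which passed in 7 of 24 settings (adjusted p 0.00899 to 0.637), including length offsets (0.59 ± 0.14, edgeR adjusted p = 0.0260) and the fits without meKO HFD replicate 1 (0.37, edgeR adjusted p = 0.0483) or replicate 2 (0.37, edgeR adjusted p = 0.0274). Ugcg (chr4:59189507-59222833, plus strand, 4.01 kb of exons), which makes glucosylceramide, the root of most glycosphingolipids, was at 58.1, 52.0 and 51.7 CPM in WT chow and 64.3, 43.1 and 64.4 in WT HFD, and at 48.4, 53.1 and 61.7 in meKO mice on chow and 58.7, 59.7 and 64.7 in meKO mice on HFD. Its diet groups overlapped in both genotypes, with log2 fold changes of 0.09 ± 0.15 in WT (95% CI -0.23 to 0.40, edgeR adjusted p = 0.687) and 0.17 in meKO (edgeR adjusted p = 0.577).

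Sgpl1 (chr10:61098642-61147684, minus strand, 4.13 kb of exons), the lyase, was at 782, 829.8 and 651 CPM in WT chow, 654, 659 and 589 in WT HFD, 705, 768 and 758 in meKO mice on chow and 651, 646 and 681 in meKO mice on HFD. The diets did not overlap in meKO mice, and overlapped in WT through WT chow replicate 3. The log2 fold change was -0.25 ± 0.11 in WT (95% CI -0.48 to -0.02, edgeR adjusted p = 0.100) and -0.17 ± 0.11 in meKO (95% CI -0.40 to 0.06, edgeR adjusted p = 0.416). In WT it passed without WT chow replicate 3 (-0.34, edgeR adjusted p = 0.0172), where 39.9% of all genes passed. It also passed with library totals in place of TMM factors (-0.34, edgeR adjusted p = 0.0483), and length offsets gave -0.06 ± 0.08 (edgeR adjusted p = 0.633). Over the 24 settings the adjusted p ran from 0.00516 to 0.935.

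**Figure D2:**
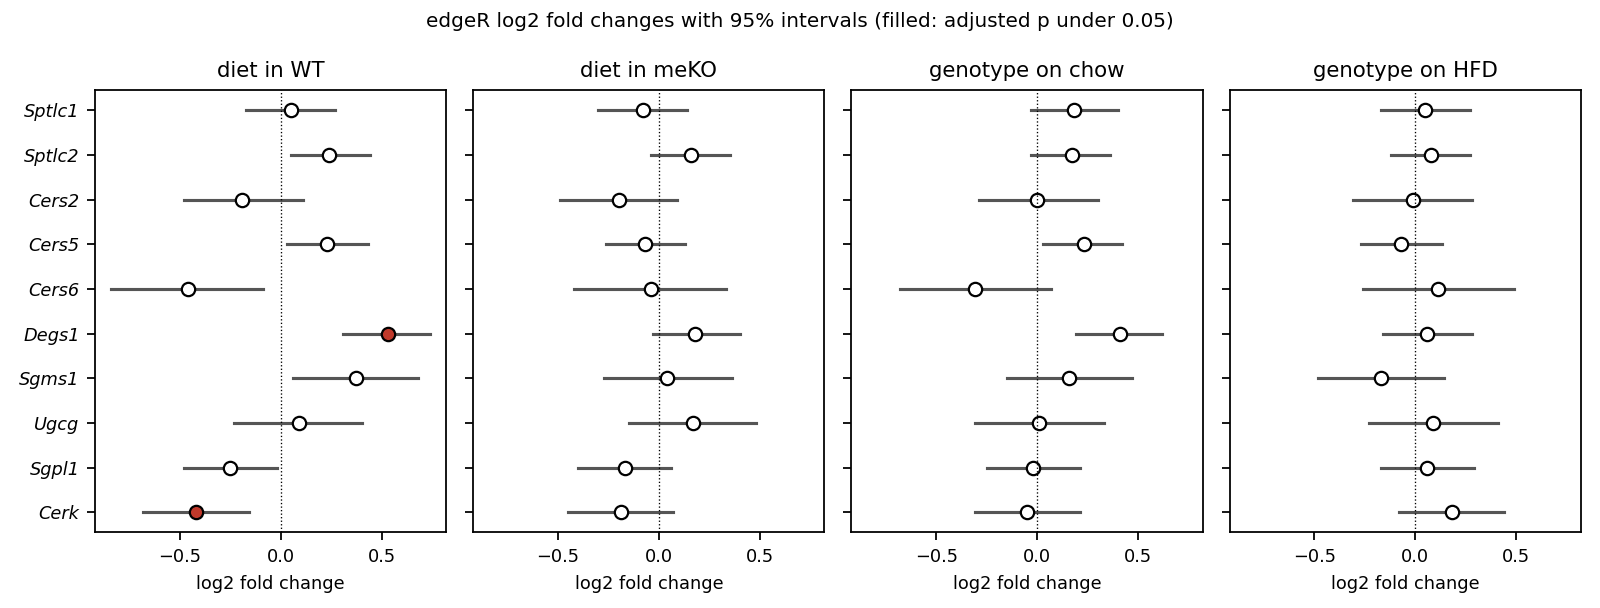
Log2 fold change with its 95% confidence interval for each of the 10 genes in the diet and genotype comparisons, from edgeR fits of all 12 libraries (n = 3 per group); filled points passed an adjusted p of 0.05. Degs1 (0.53) and Cerk (-0.42) are filled for diet in WT mice, and no gene is filled for diet in meKO mice or for genotype on either diet.

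In meKO mice none of the 10 passed for diet, where 0.105% of all genes did (13 genes). None of the 10 had an unadjusted p under 0.05 there, against 1962 of all genes, and DESeq2 and limma-voom, with or without quality weights, called none either. The smallest edgeR adjusted p was 0.374, for Degs1, and log2 fold changes ran from -0.20 for Cers2 to 0.18 for Degs1. The diet groups did not overlap for Sptlc2 (higher on HFD, 0.16 ± 0.09, 95% CI -0.04 to 0.35, edgeR adjusted p = 0.393), Sgpl1 and Cerk (both lower), 3 of 10 against 19.7% of all genes.

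Whether the diet response differed between the genotypes was tested by the interaction term. None of the 10 passed in edgeR, where 0.0162% of all genes (2 genes) did, and the smallest adjusted p was 0.791. DESeq2 and limma-voom, with or without quality weights, called none of the 10. At an unadjusted p under 0.05 there were 2 of the 10, against 756 of all genes. These were Degs1 (-0.35 ± 0.14, 95% CI -0.65 to -0.04) and Cers5 (-0.30 ± 0.13, 95% CI -0.58 to -0.02, edgeR adjusted p = 0.792), both with a smaller diet difference in meKO mice. Thus a call in WT and none in meKO mice was not shown to be a difference between the genotypes.

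Averaged over the 2 genotypes, 4 of the 10 passed for diet, where 30.2% of all genes did (14.9% higher, 15.3% lower), a share close to the background. Degs1 (0.35 ± 0.07, 95% CI 0.20 to 0.51, edgeR adjusted p = 0.00694) and Sptlc2 (0.20 ± 0.06, edgeR adjusted p = 0.0322) rose, by 27.9% and 14.9%. Cerk fell by 18.8% (-0.30 ± 0.09, edgeR adjusted p = 0.0212), and Sgpl1 fell by 13.7% (-0.21 ± 0.08, edgeR adjusted p = 0.0478). Of the other 6 genes, Cers6 was at -0.25 ± 0.12 (edgeR adjusted p = 0.129), Cers2 at -0.19 (0.141), Sgms1 at 0.21 ± 0.10 (0.131), Ugcg at 0.13 (0.371), Cers5 at 0.08 (0.344) and Sptlc1 at -0.01 (0.892).

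The 4 averaged calls differed in how far they held. Degs1 passed in 22 of 23 settings (adjusted p 1.59e-05 to 0.0820), the exception being WT chow held by its replicate 3 alone (0.32, edgeR adjusted p = 0.0820), and was 0.26 ± 0.06 with length offsets (edgeR adjusted p = 0.0102). Sptlc2 passed in 14 of 23 (adjusted p 0.00278 to 0.241). Its value rose to 0.41 ± 0.09 with length offsets (edgeR adjusted p = 0.0122), and with library totals it was 0.14 (edgeR adjusted p = 0.0924). Leaving out WT chow replicate 1 or 2, WT HFD replicate 2 or 3, meKO chow replicate 1 or 3 or meKO HFD replicate 3 also ended the call of Sptlc2, at edgeR adjusted p-values of 0.0850, 0.0712, 0.0565, 0.0848, 0.0595, 0.0728 and 0.0729.

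Cerk passed in 16 of 23 (adjusted p 0.000637 to 0.529) and was lost with length offsets (-0.14 ± 0.06, edgeR adjusted p = 0.0940), with length and GC offsets (-0.04, edgeR adjusted p = 0.529) and with WT chow replicate 3 alone (-0.16, edgeR adjusted p = 0.288). Leaving out WT chow replicate 1 or 2, WT HFD replicate 3 or meKO HFD replicate 2 brought its edgeR adjusted p to 0.0591, 0.0589, 0.0594 and 0.0523. Sgpl1 passed in 8 of 23 (adjusted p 0.00501 to 0.443). It was lost with length offsets (-0.08 ± 0.06, edgeR adjusted p = 0.355) and with median-of-ratios factors (-0.20, edgeR adjusted p = 0.0541). Leaving out any library other than WT chow replicate 3 also ended the call of Sgpl1, the edgeR adjusted p running from 0.0521 without meKO chow replicate 1 to 0.133 without WT chow replicate 2. A further 3 genes passed under some settings: Cers2 in limma-voom with quality weights alone (-0.21, adjusted p = 0.0315), where 51% of all genes passed, Cers6 without WT chow replicate 3 (-0.35, edgeR adjusted p = 0.00603) or with quality weights, and Sgms1 with length offsets (0.36, edgeR adjusted p = 0.0243), with quality weights or without meKO HFD replicate 2 (0.29, edgeR adjusted p = 0.0304).

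**Figure D3:**
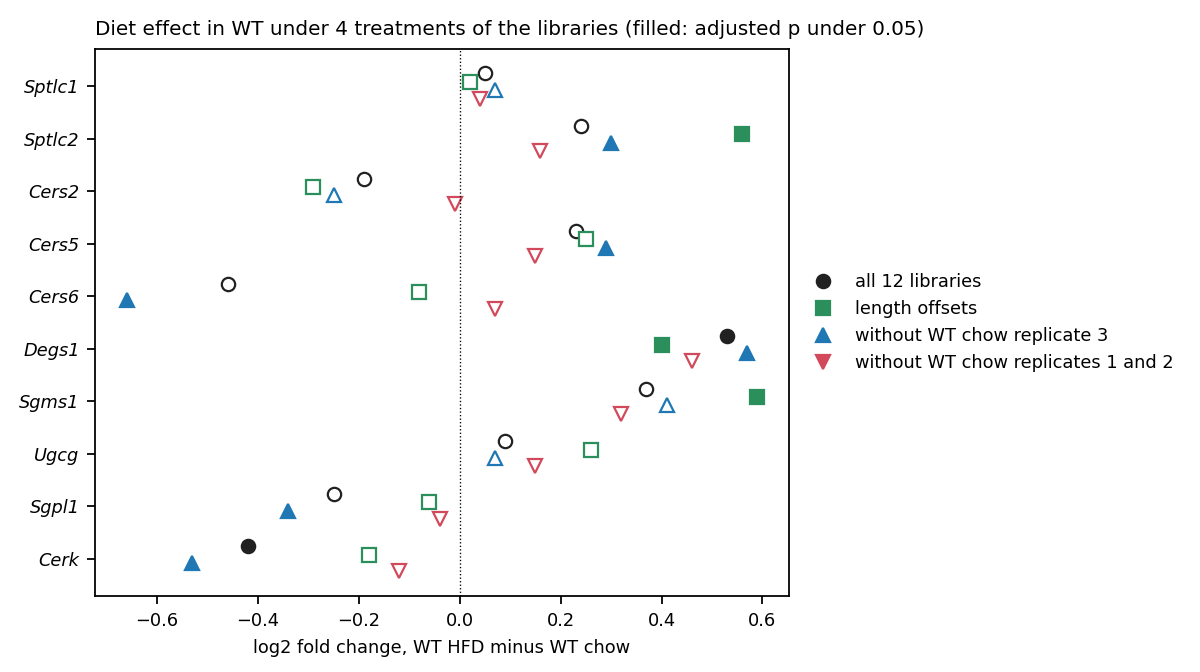
Log2 fold change of the 10 genes for diet in WT mice under 4 choices: all 12 libraries, length offsets, without WT chow replicate 3, and without WT chow replicates 1 and 2. Degs1 stays between 0.40 and 0.57 across these, whereas Cerk runs from -0.53 without WT chow replicate 3, through -0.42 with all libraries and -0.18 with length offsets, to -0.12 against WT chow replicate 3 alone.

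Markers of other cells moved with diet and genotype in the same libraries. The summed CPM of markers of resident large peritoneal macrophages was 434 to 606 in WT chow, 297 to 318 in WT HFD, 312 to 366 in meKO mice on chow and 271 to 323 in meKO mice on HFD. That of 7 mesothelial and fibroblast markers was 42.3 to 70.5, 73.4 to 114, 43.2 to 77.2 and 88.9 to 114 in the same order, and that of the 5 listed of 6 B cell markers 106 to 163, 51.9 to 87.2, 72.2 to 159 and 55.5 to 110.2. These sums rest largely on few genes. The resident macrophage sum was mostly Cd93, which averaged 331 CPM, against 16.6 for Icam2, 14.6 for Timd4 and 2.66 for Gata6. Highest among mesothelial and fibroblast markers were Dcn (38.9 CPM) and Col3a1 (22.8), and among B cell markers Ighm (67.4). The 4 listed of 6 neutrophil markers summed to 16.8 to 25.1 and 22.7 to 24.1 CPM in WT and to 30.5 to 50 and 27.6 to 50.6 in meKO, and Ly6g and Camp were not listed. The 5 dendritic cell markers summed to 14.8 to 44.1, the 6 listed of 7 T and NK cell markers to 7.12 to 16, the 2 listed of 4 eosinophil markers to 13.2 to 52.9 and the 5 mast cell markers to 39.0 to 203 CPM over the 12 libraries. Pax5, Cd8a, Epx and Prg2, defining genes of B cells, cytotoxic T cells and eosinophils, were not listed. The part of these cells in the results for the 10 genes was not tested.

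Between meKO and WT mice on chow, none of the 10 passed in edgeR, where 0.081% of all genes (10 genes) did. At an unadjusted p under 0.05 there were 2 of the 10, against 2447 of all genes, DESeq2 called 1 of the 10, limma-voom called 0, and limma-voom weighted by library quality called 4 (Sptlc2, Cers5 and Degs1 higher, Cers6 lower). Of all genes, 4.79% were called by DESeq2, 0.0162% by limma-voom and 32.8% with quality weights, so that the 4 called with weights are close to that fit's background. The groups did not overlap for 4 (Sptlc1, Sptlc2, Cers5 and Degs1, all higher in meKO), against 17.1% of all genes. Degs1 had the smallest p: from the 442 to 506 CPM of WT chow to the 609 to 659 of meKO chow, a log2 fold change of 0.41 ± 0.10 (95% CI 0.19 to 0.62, edgeR adjusted p = 0.0968). Cers5 was at 0.23 ± 0.09 (95% CI 0.03 to 0.42, edgeR adjusted p = 0.202), Sptlc1 at 0.18 ± 0.10 (edgeR adjusted p = 0.312), Sptlc2 at 0.17 ± 0.09 (edgeR adjusted p = 0.305) and Cers6 at -0.31 ± 0.17 (95% CI -0.68 to 0.07, edgeR adjusted p = 0.326).

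Whether the Degs1 difference on chow was called depended on the method and on 1 library, while its direction did not. Its adjusted p was 0.00403 in DESeq2 and 0.00348 in limma-voom with quality weights. The log2 fold change was 0.46 on leaving out WT chow replicate 3 (edgeR adjusted p = 0.0146); with length offsets it was 0.28 ± 0.08 (edgeR adjusted p = 0.194), and over the 24 settings its log2 fold change ran from 0.26 to 0.46. Without WT chow replicate 3, Cers5 (0.28, edgeR adjusted p = 0.0493) and Cers6 (-0.50, edgeR adjusted p = 0.0194) also passed. That fit called 3 of the 10 and 20.6% of all genes, against 0.081% of all genes with all 12 libraries. This comparison and that of diet in WT mice share the WT chow libraries, so the values of Degs1, Cers5 and Cers6 in them are not independent.

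On HFD, the 10 genes showed no genotype difference that the test could call. None passed in edgeR, where 0.081% of all genes (10 genes) did, none had an unadjusted p under 0.05 (563 of all genes did), none was called by DESeq2 or by limma-voom with or without quality weights, and no gene of the 10 had groups that did not overlap, against 10.3% of all genes. The log2 fold changes ran from -0.17 for Sgms1 (95% CI -0.48 to 0.14) to 0.18 ± 0.12 for Cerk (95% CI -0.08 to 0.44), and Degs1 was at 0.06 ± 0.10 (95% CI -0.16 to 0.28), with all edgeR adjusted p-values at 0.999. Averaged over the diets, none of the 10 passed either, where 0.17% of all genes did (21 genes). The count at an unadjusted p under 0.05 was 1 of the 10, against 2183 of all genes, with DESeq2 calling 1 (2.97% of all genes), limma-voom 0 (0.162%) and limma-voom with quality weights 2 (31.1%). The largest was Degs1 at 0.23 ± 0.07 (edgeR adjusted p = 0.166), which passed without WT chow replicate 3 (0.26, edgeR adjusted p = 0.0384), in DESeq2 (adjusted p = 0.0382) and in limma-voom with quality weights (adjusted p = 0.00497).

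Because steps of a pathway can shift against one another while single genes change little, 5 log2 ratios of CPM between pairs of the enzymes were compared over libraries, as a description without a test. For 2 of them the diets did not overlap in either genotype. Both hold Sptlc2, which as a single gene also separated the diets in each genotype, so they are not separate results. Of all single genes, 39.3% did not overlap by diet in WT and 19.7% in meKO mice, and the share over gene pairs was not computed. Sptlc2 over Sptlc1, the subunits of serine palmitoyltransferase, was 1.29 to 1.4 in WT chow against 1.45 to 1.65 in WT HFD, and 1.25 to 1.43 in meKO mice on chow against 1.48 to 1.64 in meKO mice on HFD. Sgpl1 over Sptlc2, the exit over the entry of the pathway, was 1.94 to 2.38 in WT chow against 1.56 to 1.86 in WT HFD, and 2.0 to 2.11 in meKO mice on chow against 1.70 to 1.75 in meKO mice on HFD. With length offsets both ratios still separated the diets in each genotype, Sptlc2 over Sptlc1 at 0.78 to 1.43 against 1.48 to 1.66 in WT and 1.27 to 1.5 against 1.60 to 1.85 in meKO. The offsets moved WT chow replicates 1 and 2 away from WT HFD, Sptlc2 over Sptlc1 going from 1.29 and 1.3 to 0.87 and 0.78. For those 2 libraries the offsets could therefore not have ended the separation.

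The other 3 ratios overlapped between diets in at least 1 genotype. Cers6 over Cers2 was -2.5 to -2.0 in WT chow, -2.77 to -2.21 in WT HFD, -2.58 to -2.33 in meKO mice on chow and -2.35 to -2.20 in meKO mice on HFD. Cers5 over Cers2 was -2.19 to -1.74, -1.80 to -1.38, -1.83 to -1.68 and -1.77 to -1.40 in the same order. Ugcg over Sgms1, glucosylceramide against sphingomyelin synthesis, was -0.70 to -0.52, -1.22 to -0.70, -1.04 to -0.36 and -0.92 to -0.24.

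**Figure D4:**
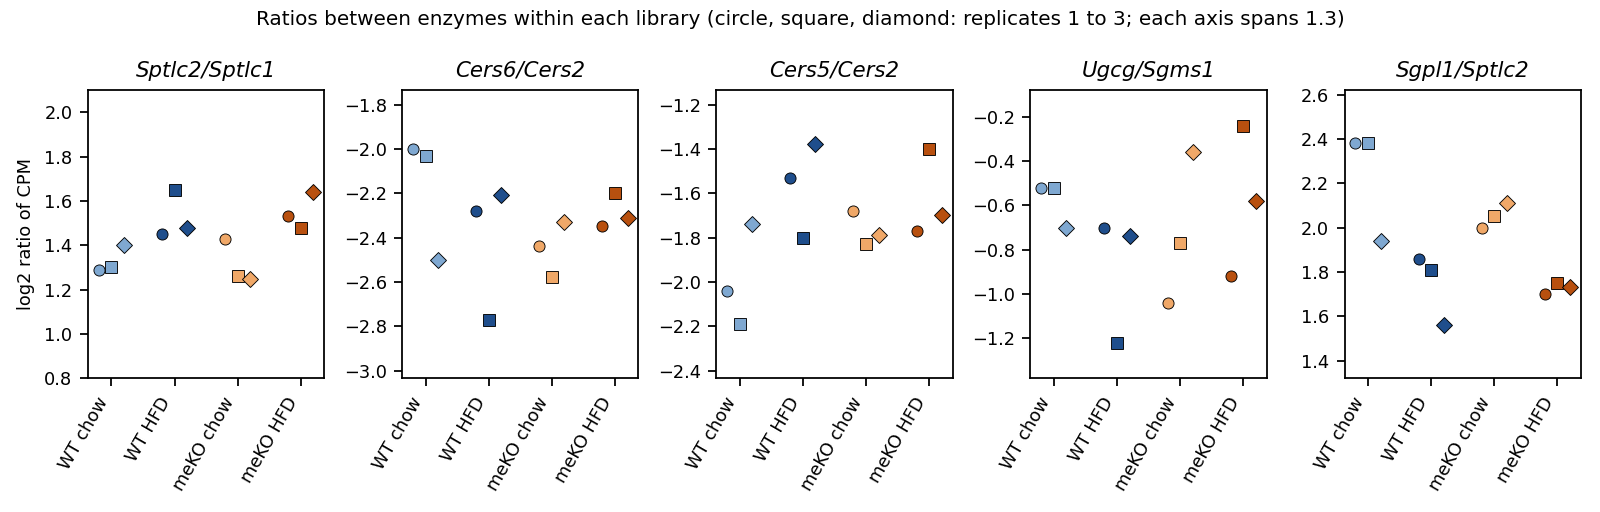
Log2 ratios of CPM between pairs of the enzymes in each of the 12 libraries, by group (circle, square and diamond are replicates 1 to 3). Sptlc2 over Sptlc1 lies at 1.25 to 1.43 on chow and 1.45 to 1.65 on HFD, and Sgpl1 over Sptlc2 at 1.94 to 2.38 on chow and 1.56 to 1.86 on HFD.

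Over the 12 libraries the 10 genes did not rise and fall as 1 group. Among their 45 pairs the Pearson correlation of log2 CPM had a median of -0.02, from -0.69 to 0.92, and 22 were positive; these points share depth, diet and the relation with length. The closest pairs were Sgpl1 with Cerk (0.92) and Sptlc2 with Degs1 (0.91), which were 0.73 and 0.82 after length offsets. The most opposed pairs were Cers6 with Degs1 (-0.69, or 0.01 after length offsets) and Sptlc2 with Sgpl1 (-0.69, or -0.22). Levels also followed the length correlation of the library: r was -0.90 for Degs1, -0.89 for Sptlc2, 0.85 for Cers6, 0.81 for Cerk and 0.80 for Sgpl1. After length offsets these were -0.80, -0.97, 0.19, 0.39 and 0.25. With the offsets r grew in size for Cers2 (0.71 to 0.83), Cers5 (-0.69 to -0.73), Sgms1 (-0.44 to -0.76) and Ugcg (-0.23 to -0.59). For Sptlc1 it went from -0.35 to -0.15. The part of that library difference in the results for these genes was not tested beyond the offsets given.

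The promoters of the 4 genes that passed for diet over both genotypes are shown, taken as 2 pairs by direction. Degs1 and Sptlc2 were higher on HFD, and Sgpl1 and Cerk were lower. The calls of Sgpl1 and Cerk were lost with length offsets (edgeR adjusted p = 0.355 and 0.0940). The sequences are the 250 bases before a start site that the RefSeq promoter table gives for the gene (GRCm38.p6), read along the gene's strand, with the motif letters found by a search of both strands in capitals. That start can lie inside the gene span given above: the Degs1 window is wholly within the span of Degs1, downstream of its outermost start, and the Cerk window runs into that of Cerk. Degs1 (chr1:182282196-182282445, minus strand) holds 1 CACGTG, the E-box bound by TFEB and MYC type factors. Sptlc2 (chr12:87388356-87388605, minus strand) holds 2 copies of GGGCGG, the Sp1 motif, both on the opposite strand (CCGCCC), and Sgpl1 (chr10:61147685-61147934, minus strand) holds 3. Cerk (chr15:86186142-86186391, minus strand) holds 1 AGGTCA, the half-site of nuclear receptors.
Degs1: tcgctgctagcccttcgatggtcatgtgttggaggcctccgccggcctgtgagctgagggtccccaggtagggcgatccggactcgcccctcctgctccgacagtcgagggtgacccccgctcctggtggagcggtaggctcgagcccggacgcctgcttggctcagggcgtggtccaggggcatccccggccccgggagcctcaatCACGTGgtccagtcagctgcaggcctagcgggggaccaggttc
Sptlc2: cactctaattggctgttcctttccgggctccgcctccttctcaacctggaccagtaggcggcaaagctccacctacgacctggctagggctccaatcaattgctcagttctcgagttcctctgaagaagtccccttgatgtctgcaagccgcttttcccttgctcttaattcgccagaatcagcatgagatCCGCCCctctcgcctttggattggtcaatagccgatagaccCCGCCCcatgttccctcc
Sgpl1: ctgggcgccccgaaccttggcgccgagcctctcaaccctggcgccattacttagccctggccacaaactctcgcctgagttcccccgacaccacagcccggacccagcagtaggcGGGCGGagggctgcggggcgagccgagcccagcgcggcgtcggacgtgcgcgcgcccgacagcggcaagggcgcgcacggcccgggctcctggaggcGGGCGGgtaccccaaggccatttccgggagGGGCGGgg
Cerk: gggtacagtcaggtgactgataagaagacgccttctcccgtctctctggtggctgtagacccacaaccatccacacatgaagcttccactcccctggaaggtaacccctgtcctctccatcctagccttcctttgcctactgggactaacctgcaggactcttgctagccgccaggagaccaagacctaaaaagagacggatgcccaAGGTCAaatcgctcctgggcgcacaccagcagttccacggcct
Neither of the pairs shares a motif among those searched.

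All 10 genes matched a promoter in the RefSeq table, with 14 promoters between them, and 32851 promoters of the same length served as background. A gene was counted if any of its promoters held the motif, whereas the background share is per promoter, so the units differ. CACGTG was in promoters of 3 genes (Cers2, Cers6 and Degs1) and in 6.02% of all promoters. AGGTCA was in promoters of 3 genes (Cers2, Sgms1 and Cerk) and in 14% of all, and GGGCGG in those of 7 genes and in 32.7% of all. TCACNCCAC, a form of the sterol regulatory element, and GAGGAAGT, the PU.1 motif, were in none of the 10, and in 1.05% and 2.44% of all promoters. The motifs do not contain one another. A match in these letters is not evidence of binding, and its absence says only that the letters are not in these windows.

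Other genes of sphingolipid metabolism, taken from a list of 72 of which 59 were in the table, moved in both directions on HFD. In WT mice 13 of 59 passed (6 higher, 7 lower), or 22%, close to the 21.3% of all genes, and averaged over genotypes 16 passed (7 higher, 9 lower), or 27.1% against 30.2%. The WT count turned on single libraries. It was 0 without WT chow replicate 1 (1.05% of all genes passed) or WT HFD replicate 3 (0.778%). It was 1 without WT chow replicate 2 (2.59%) and 19 without WT chow replicate 3 (39.9%). Averaged over genotypes, leaving out 1 library gave 8 to 23. In the other 5 comparisons edgeR called none of the 59, of which 14 had an unadjusted p under 0.05 for diet in meKO mice (15.9% of all genes did), 12 for the chow-fed genotypes (19.8%), 2 for the HFD-fed genotypes (4.56%), 12 for genotype averaged over diets (17.7%) and 4 for the interaction (6.13%). DESeq2 called 6 of the 59 for genotype on chow (4.79% of all genes), 1 for genotype averaged over diets (2.97%) and 0 in the other 3 comparisons. With quality weights, limma-voom called 21 for genotype on chow (32.8% of all genes), 19 for genotype averaged over diets (31.1%) and 2 for the interaction (2.39%), and without weights it called 0 in all 5. By role, 4 of 12 genes of glycosphingolipid breakdown passed for diet in WT mice (3 higher, 1 lower) and 2 of 4 of de novo synthesis (both lower). Of very long chain acyl supply 2 of 8 passed (1 each way), and of the sphingosine 1-phosphate receptors 0 of 4. Of the 6 genes listed under sphingomyelin breakdown 1 passed, Smpdl3a (higher), an acid sphingomyelinase-like gene. The sphingomyelinase genes Smpd1, Smpd2, Smpd3 and Smpd4 did not pass. With length offsets, 2 of the 4 calls in glycosphingolipid breakdown and both in acyl supply remained, and that of Smpdl3a did not. Neither call in de novo synthesis remained: Kdsr, the reductase after serine palmitoyltransferase, named here for this check, went to -0.08 (edgeR adjusted p = 0.723), and Cers4 from -0.89 to -0.52 (edgeR adjusted p = 0.214). Among the genes of lysosomal breakdown, Galc, the galactosylceramidase, fell in WT mice (-0.60 ± 0.15, edgeR adjusted p = 0.0211), from 229, 246 and 179 CPM in WT chow to 167, 143 and 121 in WT HFD. The 2 diet groups of Galc did not overlap in WT mice.

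Around the entry of the pathway, Ormdl2, one of the ORMDL proteins that restrain serine palmitoyltransferase, rose in WT mice (0.65 ± 0.18, edgeR adjusted p = 0.0262). Elovl1, an elongase of very long acyl chains, rose (0.46 ± 0.12, edgeR adjusted p = 0.0223), and Elovl6, which elongates palmitate, fell (-1.16 ± 0.25, edgeR adjusted p = 0.0132) from 2.91, 2.09 and 2.21 CPM in WT chow to 1.1, 1.17 and 0.963 in WT HFD. Sphk2, a sphingosine kinase, fell (-0.58 ± 0.14, edgeR adjusted p = 0.0208), as did B4galt5, a lactosylceramide synthase (-0.49 ± 0.13, edgeR adjusted p = 0.0240). B4galt5 was at 168, 176 and 117 CPM in WT chow and 112, 108 and 109 in WT HFD, so WT chow replicate 3 lay near the HFD libraries. Its log2 fold change ran from -0.64 to -0.10 over 24 settings, with a call in 15. Sphk2 passed in 18 of 24 settings, at -0.67 to -0.25. Averaged over genotypes, Hsd17b12, a further enzyme of acyl elongation, rose (0.32, edgeR adjusted p = 0.0220, called in 15 of 23 settings), but was at 0.20 with length offsets (edgeR adjusted p = 0.0539). Cers4, the scarcest listed ceramide synthase at 0.291 CPM per kb, fell (-0.80, edgeR adjusted p = 0.0128, or -0.58 and 0.0496 with length offsets).

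With length offsets, 10 of the 59 passed in WT mice, where 11.2% of all genes did, and 5 of those passed in both fits, among them Galc, Sphk2, Elovl1 and Elovl6. Ormdl2 was then at 0.43 (edgeR adjusted p = 0.0516) and B4galt5 at -0.28 (edgeR adjusted p = 0.0812). Averaged over genotypes 17 passed with length offsets, where 21.7% of all genes did, 10 of them in both fits.

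**Figure D5:**
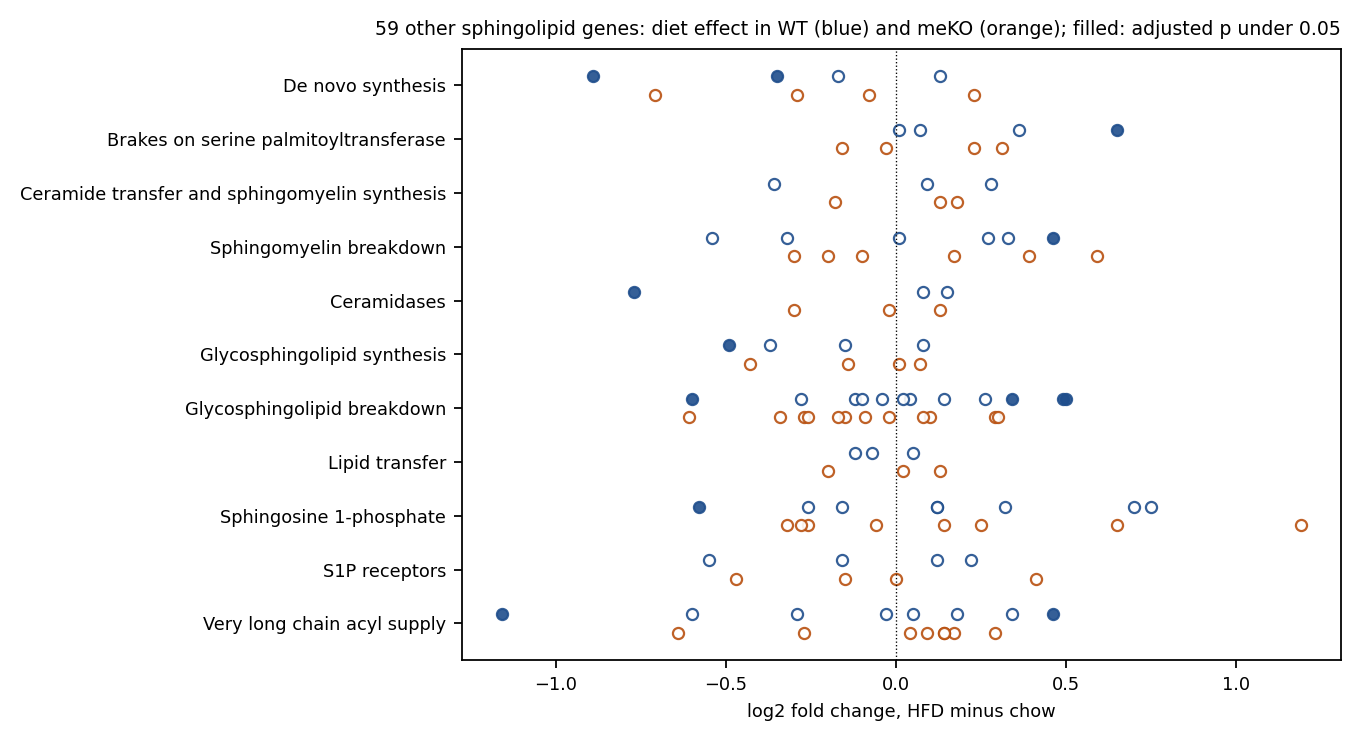
Log2 fold change for diet (HFD minus chow) of the 59 other listed sphingolipid genes, grouped by role (each point is 1 gene, blue in WT and orange in meKO mice; filled points passed an edgeR adjusted p of 0.05). Filled WT points lie on both sides of 0, from -1.16 for Elovl6 to 0.65 for Ormdl2, and no meKO point is filled.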

How the data were processed

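Gene counts from RNA sequencing of 12 libraries (Trizol RNA, TruSeq kits, per the labels' protocols) were analysed in 4 groups of 3. The authors deposited 1 table of whole-number counts per gene; mm10 and DESeq2 are named in the submitters' processing notes, and the aligner, the counting program and whether strand was used are not given in the sources used here, so reads of a gene and its antisense partner cannot be told apart. The genes of interest and the other gene lists were chosen with earlier results of these data known.

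The counts were fitted in R 4.3.3 with edgeR 4.0.16 (TMM factors, filterByExpr, robust quasi-likelihood fit, 4 group means, all 12 libraries), and p-values were adjusted by the Benjamini-Hochberg method over all 12339 genes, with a threshold of 0.05. CPM values use TMM library sizes. A standard error is on the log2 scale, and confidence intervals are at 95%. The genes named among the other sphingolipid genes were at most 4 per direction in a comparison, by smallest p; some items under this rule are not reported here. Exon lengths came from GENCODE vM21 (12047 of 12339 genes matched). Length offsets were made per library from a smooth curve (span 0.3) of its deviation on log length. Alternatives were other scalings and filters, DESeq2 1.42.0, limma 3.58.1 voom with and without quality weights, a non-robust fit, length offsets, fits of 2 groups and leaving out each library. Length with GC offsets and WT chow held by replicate 3 alone were chosen after seeing the data. The fits and offsets were tested on simulated data.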

Additional observations from a re-analysis of the deposited data

How the results depend on the processing

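Of 1650 log2 fold changes of the 10 genes under alternative settings, 1569 stayed on their side of the threshold, 43 were no longer called and 38 became called. At 2 decimals the sign was opposite in 67 of them, and in 0 of these was the value called in either fit. Counts under a named alternative below are followed by the share of all genes called in the same fit. Each highest count on leaving out 1 library came from the fit that lacked WT chow replicate 3. It called 20.6% of all genes for genotype on chow and 39.9% for diet in WT mice. Averaged, it called 11.3% for genotype and 43.2% for diet. For diet in WT mice, the counts of 0 on leaving out 1 library came from fits that called 1.05% and 0.778% of all genes. Such counts are to be read beside those shares. For genotype on chow, 0 of the 10 genes were called, against 1 with DESeq2 (4.79%), 4 with quality weights (32.8%) and 0 to 3 on leaving out 1 library. For diet in WT mice the count was 2, against 5 with DESeq2 (28%), 7 with quality weights (52%), 0 with WT chow replicate 3 alone (0.122%), and 0 to 6 on leaving out 1 library. For genotype averaged over diets it was 0, against 1 with DESeq2 (2.97%), 2 with quality weights (31.1%) and 0 to 1 on leaving out 1 library. For diet averaged over genotypes it was 4, against 7 with quality weights (51%), 2 with length and GC offsets (22.5%), 0 with WT chow replicate 3 alone (1.64%), and 1 to 5 on leaving out 1 library. Calls over all genes moved more: 2 to 4047 for genotype on chow, 3 to 128 for genotype on HFD, 15 to 6411 for diet in WT, 1 to 398 for diet in meKO, 1 to 295 for the interaction, 8 to 3835 for genotype and 202 to 6298 for diet averaged. With library totals in place of TMM factors, the share of calls that were higher was 31.3% in place of 44.5% for diet in WT and 38.1% in place of 49.3% for diet averaged. No paired analysis was possible because replicate numbers were given in accession order and pair no samples. With 3 libraries per group, differences smaller than about the distance from a value to either end of its confidence interval could not be told from spread. Depth was not the limit for these genes.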

Other observations

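Among 9310 genes, those whose log2 CPM followed each of the 4 diet-called enzymes most closely over the 12 libraries are given as a description; the libraries share depth, diet and the relation with gene length. For Degs1 they were Rnh1 (r = 0.987), Pdcd6 (0.978) and Sumf2 (0.974), and after length offsets Rnh1 again (0.978), with BC031181 (0.957) and Nipsnap3b (0.954). For Sptlc2 they were Arf1 (0.963), Vapa (0.955) and Morf4l2 (0.954), and after length offsets Ap3m1 (0.991), Ufm1 (0.989) and Tpgs2 (0.988). Antxr2 came first for both Sgpl1 (0.957) and Cerk (0.954), and after length offsets Stx2 was among the 3 closest to both (0.846 for Sgpl1 and 0.935 for Cerk).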
